A study of Rattus norvegicus with 8 samples.

Results

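Antioxidant defence genes were examined in the injured dorsal root ganglion (DRG) of rats given a class I histone deacetylase inhibitor (HDACI) or vehicle. The group was set by name: Sod1, Sod2, Nqo1, Cat, Gclc, Gclm, Gpx1, Gpx3, Txnrd1 and Nfe2l2. All 10 had 1 probe set of their own on the array, out of 14497 genes named by a single symbol and 28826 probe sets in all. The measured tissue was the L5 DRG on the side of an L5 spinal nerve transection, taken at day 14 from adult male Wistar rats with no genetic change. HDACI rats received MS-275 at 30 nmol per day into the intrathecal space from an osmotic pump, and vehicle rats received the solvent, dimethyl sulfoxide in saline, in the same way. Each group had 4 samples on 1 array each, which the methods call biological replicates. Both groups carried the nerve injury, so neither shows these genes in an uninjured ganglion, and whether a sample held 1 animal or several is not given in the sources used here.

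Antioxidant enzymes remove the reactive oxygen species that respiration and inflammation produce. Superoxide dismutases turn superoxide into hydrogen peroxide, and catalase and the glutathione peroxidases then break the peroxide down. Glutathione supplies the electrons for the glutathione peroxidases, and thioredoxin supplies them to other peroxide-removing enzymes. The transcription factor Nrf2, encoded by Nfe2l2, is held in check by Keap1 and, when released, binds antioxidant response elements near genes such as Nqo1, Gclc, Gclm and Txnrd1. In the DRG these genes serve neurons with long, mitochondria-rich axons, and also the satellite glia, Schwann cells and macrophages around them.

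The core letters of the antioxidant response element, TGACNNNGC on either strand, were looked for in the 250 bases before each RefSeq start site (GRCr8), to show which of the genes carry them close to the start. They were present in 3 of the 11 windows of these 10 genes and in 10.1% of all 33469 windows. Txnrd1 has 2 annotated windows, of which 1 held the letters, and Sod2 and Gclm were the other matches. The letters were not in the windows of Nqo1, Gclc or the remaining genes, which says nothing of sites farther away. The stretches are shown 5′ to 3′ on the strand of the gene, with the match in capitals, and in all 3 it reads on the opposite strand. They lie on the minus strand at chr1:50050170-50050229 (Sod2), the plus strand at chr2:213031937-213031996 (Gclm) and the minus strand at chr7:22755949-22756008 (Txnrd1).
Sod2: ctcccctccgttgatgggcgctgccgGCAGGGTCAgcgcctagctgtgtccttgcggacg
Gclm: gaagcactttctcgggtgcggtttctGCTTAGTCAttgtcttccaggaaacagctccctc
Txnrd1: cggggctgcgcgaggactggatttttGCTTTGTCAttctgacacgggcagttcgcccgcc
The first base of the match lies 35 bases before the start in Sod2, 172 in Gclm and 78 in Txnrd1. The differences between HDACI and vehicle of these 3 genes were -0.22, -0.07 and -0.01 on the log2 scale. All were below 0, and of these 3 only that of Sod2 was more than 0.1 from it. Of the genes without the letters, Sod1, Nqo1 and Cat were also below 0, and Gclc, Gpx1, Gpx3 and Nfe2l2 were above it. The difference of Txnrd1 changed sign to 0.01 without HDACI replicate 2.

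The arrays differed more in skeletal muscle markers than in any of these 10 genes. Array medians lay between 8.13 and 8.16 and pairs of arrays correlated at 0.991 to 0.997. Markers of the DRG were bright on every array: the sensory neuron gene Tubb3 measured at least 13.2, the satellite glia gene Apoe at least 13.25 and the Schwann cell gene Pmp22 at least 13.91 (log2). All 20 measured skeletal muscle genes of 25 listed were lower in HDACI, with none past the adjusted threshold. Their mean was 7.61 to 7.999 in the HDACI arrays and 11.07, 10.31, 7.75 and 9.37 in vehicle replicates 1 to 4. All 15 macrophage genes were measured and 14 were higher in HDACI, again with none past the threshold. Their mean was 10.24, 10.27, 10.47 and 10.80 in HDACI replicates 1 to 4 and 10.24 to 10.49 in vehicle, so HDACI replicate 4 lay highest. By exact permutation, the mean of each of the other 8 marker lists gave a p of 0.171 to 0.857, and muscle and macrophage means gave 0.114 and 0.629. Of 18 sensory neuron markers 16 were lower in HDACI, with a median difference of -0.07 and list means of 10.78 to 10.91 in HDACI and 10.78 to 11.21 in vehicle. All 5 erythroid and 7 of 8 fibroblast markers were higher, with medians of 0.26 and 0.125. In a whole ganglion, fewer cells of a type and less RNA per cell cannot be told apart.

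The comparison asks whether intrathecal MS-275 changed antioxidant gene expression in the injured ganglion. The paper saw no clear difference in histone acetylation of L5 DRG with the drug, in Western blots or at the promoters it tested. It says the drugs seemed not to arrive in these ganglia in detectable amounts. The arrays therefore cannot show how these genes respond where the enzymes are inhibited. None of the 10 genes passed the adjusted threshold. With limma, and p-values adjusted by Benjamini-Hochberg over the 28826 probe sets, each had an adjusted p of 1, and 0% of all probe sets had an adjusted p under 0.05 (3.55% without adjustment). Without adjustment, 1 gene (Sod2) had a p under 0.05, and it was lower in HDACI; 1.93% of all probe sets met that mark in this direction. In the other direction 0 of the 10 did, against 1.61% of all probe sets. The HDACI and vehicle arrays overlapped for all 10, and for all but 2.1% of all probe sets. The mean was lower in HDACI for 6 genes and higher for 4, with a median difference of -0.0043, and for all probe sets 46.7% were lower and the median was 0.00545 (log2).

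**Figure D1:**
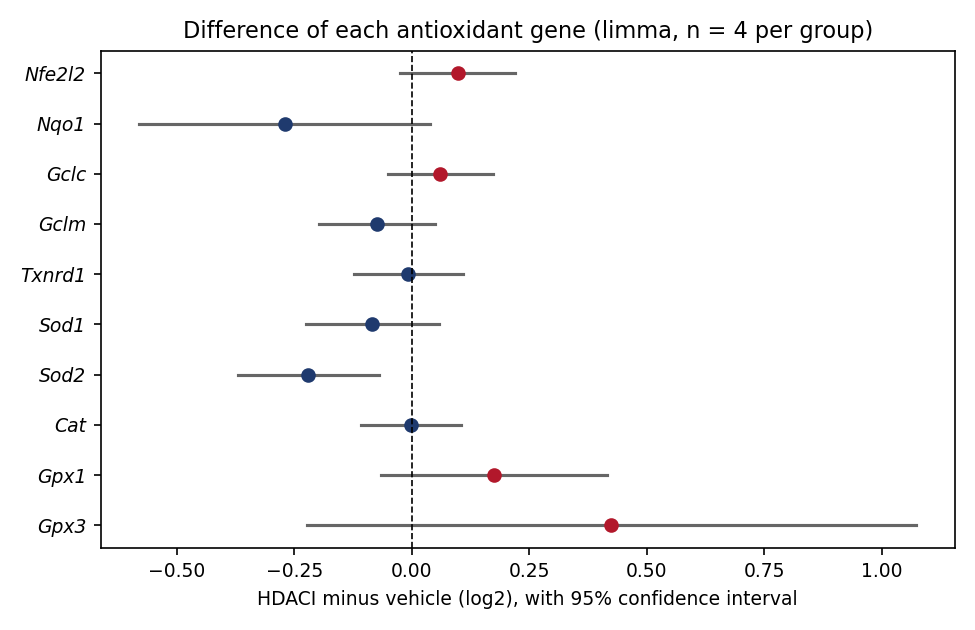
Each point is the difference HDACI minus vehicle of 1 gene on the log2 scale (n = 4 per group), red above 0 and blue below, and each line is its 95% confidence interval from limma. The interval of Sod2 runs from -0.37 to -0.07, that of Gpx3 is the widest, and the other 8 also include 0.

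The manganese superoxide dismutase of mitochondria, Sod2, had the smallest p of the group. It measured 11.69, 11.68, 11.88 and 11.79 in HDACI replicates 1 to 4 and 11.85, 12.05, 12.03 and 11.99 in vehicle. Of the HDACI arrays, 3 lay below the lowest vehicle array, and only HDACI replicate 3 and vehicle replicate 1 overlapped. The group means were 11.76 ± 0.10 and 11.98 ± 0.09 (SD, n = 4), a difference of -0.22 ± 0.07 (log2, SE), or 1.16-fold lower. The limma p was 0.00909, rank 147 of the 28826 probe sets. The exact two-sided permutation p over the 70 relabellings was 0.0571, where 0.0286 is the smallest this design can give. With the skeletal muscle mean as a covariate the difference was -0.29, and without HDACI replicate 4 it was -0.23. With single arrays left out it ran from -0.26 (without vehicle replicate 1) to -0.19 (without HDACI replicate 2). The part of the sensory neuron markers, 16 of 18 of which were also lower in HDACI, was not tested.

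The genes whose pattern across the 8 arrays was most like that of Sod2 were, among 14496 others, Cryzl1 (r = 0.945), the arrestin gene Arrb2 (0.942), the neuropeptide gene Npy (0.932), the RNA demethylase gene Fto (0.931) and Ralyl (0.931). These correlations are descriptions, picked as the highest among all genes.

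The cytosolic copper and zinc dismutase Sod1 measured 11.89, 11.96, 12.07 and 11.94 in HDACI and 12.16, 12.10, 11.998 and 11.95 in vehicle. HDACI replicate 3 lay above 2 of the vehicle arrays, and 2 HDACI arrays lay below all of them. The difference was -0.08 ± 0.06 (log2, SE; p = 0.211 by limma, exact permutation p = 0.2, adjusted p = 1). The 2 vehicle arrays with the highest Sod1 were also the 2 highest in skeletal muscle genes. With the skeletal muscle mean as a covariate the difference was 0.01 ± 0.08 (log2, SE). It was -0.01 with these 2 arrays left out and -0.05 without vehicle replicate 1 alone. The muscle mean was at most 7.999 in the HDACI arrays and reached 11.07 in vehicle, so this covariate partly follows the group. The part of muscle in the Sod1 difference was not tested.

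**Figure D2:**
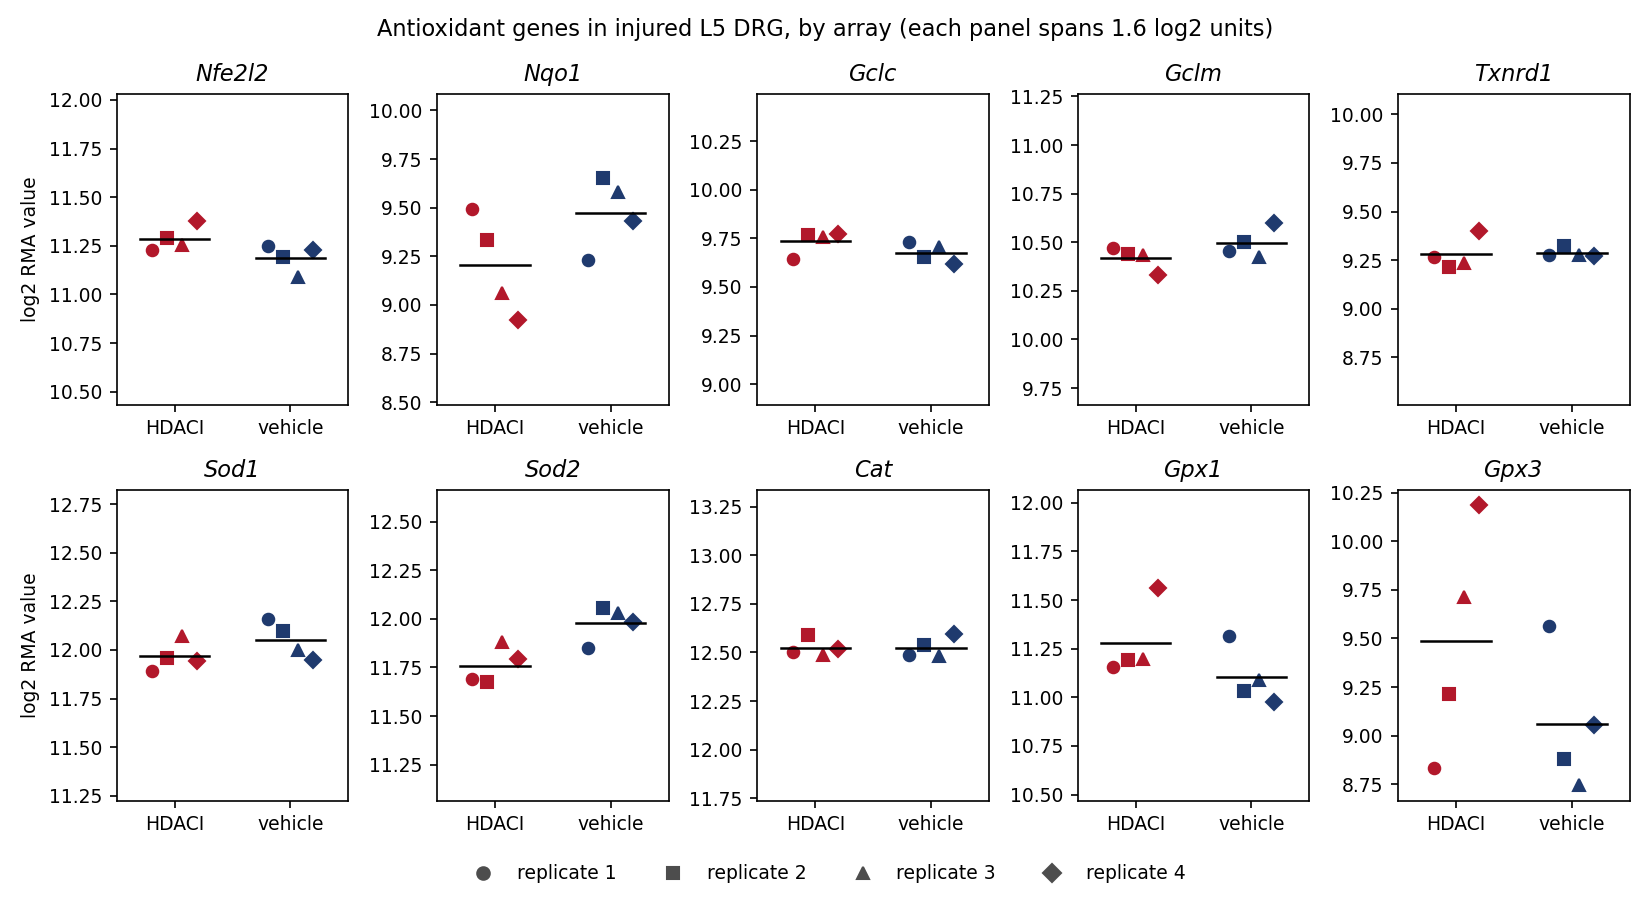
Log2 RMA values of the 10 antioxidant genes are shown per array (HDACI red, vehicle dark blue, symbols give the replicate number, bars the group means of n = 4), each panel spanning the same number of log2 units. Gpx3 and Nqo1 spread most, and Cat, Gclc and Txnrd1 lie nearly flat.

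The peroxide-removing enzymes did not move as a unit. Catalase (Cat), the peroxisomal enzyme that splits hydrogen peroxide, was nearly constant. It lay between 12.48 and 12.59 on all arrays, with a mean of 12.52 ± 0.05 in HDACI and 12.53 ± 0.05 in vehicle (SD, n = 4). The 95% confidence interval of its difference, -0.11 to 0.10 on the log2 scale, corresponds to 0.928-fold to 1.08-fold.

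The cytosolic glutathione peroxidase Gpx1 measured 11.16, 11.19, 11.20 and 11.56 in HDACI and 11.32, 11.03, 11.09 and 10.98 in vehicle. HDACI replicate 4 alone lay above every vehicle array, and the other HDACI arrays lay below vehicle replicate 1. The difference was 0.17 ± 0.11 (log2, SE; p = 0.136 by limma, exact permutation p = 0.2, adjusted p = 1), and 0.08 without HDACI replicate 4.

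The secreted glutathione peroxidase Gpx3 varied most of the 10. It measured 8.83, 9.21, 9.71 and 10.19 in HDACI and 9.57, 8.88, 8.74 and 9.06 in vehicle, a range of 1.44 on the log2 scale. HDACI replicates 3 and 4 lay above all vehicle arrays, while HDACI replicate 1 lay below 3 of them. The difference was 0.42 ± 0.29 (log2, SE; 1.34-fold, 95% confidence interval 0.857 to 2.1, p = 0.172 by limma, exact permutation p = 0.257, adjusted p = 1). It was 0.19 without HDACI replicate 4 and 0.64 without HDACI replicate 1.

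Nfe2l2, the gene of Nrf2, was slightly higher in most HDACI arrays. It measured 11.23, 11.29, 11.25 and 11.38 in HDACI and 11.25, 11.19, 11.09 and 11.23 in vehicle, so 3 HDACI arrays lay above the highest vehicle array. The difference was 0.10 ± 0.05 (log2, SE; p = 0.104 by limma, adjusted p = 1), and the exact two-sided permutation p was 0.0571. Without vehicle replicate 3 the difference was 0.06.

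The genes that Nrf2 is known to induce did not share a direction. Nqo1, a quinone reductase that is widely used as a readout of Nrf2, measured 9.50, 9.34, 9.06 and 8.92 in HDACI and 9.23, 9.65, 9.58 and 9.43 in vehicle. HDACI replicates 3 and 4 lay below all vehicle arrays, and HDACI replicate 1 lay above 2 of them. The difference was -0.27 ± 0.14 (log2, SE; p = 0.0799 by limma, exact permutation p = 0.171, adjusted p = 1). It was -0.18 without HDACI replicate 4 and -0.37 without HDACI replicate 1.

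Gclc and Gclm encode the catalytic and the modifier subunit of glutamate-cysteine ligase, the enzyme of the first step of glutathione synthesis. Gclc measured 9.65, 9.77, 9.76 and 9.77 in HDACI and 9.73, 9.65, 9.70 and 9.62 in vehicle, a difference of 0.06 ± 0.05 (log2, SE). Gclm measured 10.47, 10.44, 10.43 and 10.33 in HDACI and 10.45, 10.50, 10.42 and 10.60 in vehicle, a difference of -0.07 ± 0.05. For Gclc 3 HDACI arrays were above all vehicle arrays, and for Gclm 1 was below all of them. The limma p was 0.253 and 0.204, and the exact permutation p was 0.2 for both (adjusted p = 1). The difference of Gclm was -0.05 without HDACI replicate 4 and -0.04 without vehicle replicate 4.

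Txnrd1, the cytosolic thioredoxin reductase, lay between 9.22 and 9.40 on all arrays. Its vehicle arrays spanned only 9.27 to 9.32, with 3 HDACI arrays below and HDACI replicate 4 above them, and its difference was -0.01 ± 0.05 (log2, SE; 95% confidence interval -0.12 to 0.11).

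Some of the 10 genes varied together across the 8 arrays, with both groups pooled and group means not removed. Of the 45 pairs, 21 had a positive and 24 a negative Pearson correlation, and 2 passed an adjusted p of 0.05 over the 45 by exact permutation of all orders of the 8 arrays. Nqo1 and Gpx3 ran in opposite order (r = -0.971, exact permutation p = 0.000124, adjusted p = 0.00558; Spearman's rho = -0.929, p = 0.00223, adjusted p = 0.1). Without HDACI replicates 3 and 4, farthest from the median of Nqo1, r was -0.911. With any single array left out it lay between -0.99 and -0.952 and passed in all 8 cases. Within the HDACI group the order of Gpx3 was exactly the reverse of that of Nqo1. The array lowest in Nqo1 was the highest in Gpx3 also among the vehicle arrays (replicate 1).

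The subunit genes Gclc and Gclm were the other pair (r = -0.832, exact permutation p = 0.00201, adjusted p = 0.0452; rho = -0.81, p = 0.0218, adjusted p = 0.14). Without HDACI replicate 1 and vehicle replicate 4, farthest from the median of Gclc, r was -0.72. With any single array left out r lay between -0.877 and -0.727, and the pair passed in 1 of these 8 cases of 7 arrays. Its r was -0.65 after a second quantile normalization (adjusted p = 0.243). By Spearman's rho 0 of the 45 pairs passed, although 11 had an unadjusted Pearson p under 0.05.

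HDACI replicate 4 was an extreme for many of these genes. It was the highest array for 5 of the 10 genes (Gclc, Gpx1, Gpx3, Txnrd1, Nfe2l2) and the lowest for 2 (Nqo1, Gclm), against 15% and 19.5% of all probe sets. That array was also the highest in macrophage markers. Across the 8 arrays the macrophage mean was related to Gpx3 (r = 0.921, exact permutation p = 0.00399; rho = 0.667, p = 0.0831), to Gpx1 (r = 0.903, p = 0.00692; rho = 0.786, p = 0.0279) and inversely to Nqo1 (r = -0.842, p = 0.00704; rho = -0.571, p = 0.151). These were the 3 of 10 relations with an adjusted exact permutation p of 0.0235, and they were computed after the values had been seen.

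HDACI replicate 4 was the array on which the relations to the macrophage mean rested most. With it alone left out, r was 0.844 for Gpx3, 0.681 for Gpx1 and -0.713 for Nqo1. With any other single array left out, r lay between 0.913 and 0.94, 0.898 and 0.935, and -0.898 and -0.83. Without HDACI replicate 4 and vehicle replicate 1, farthest from its median, r was 0.793 for Gpx3, 0.412 for Gpx1 and -0.679 for Nqo1. By Spearman's rho 0 of the 10 passed (adjusted p = 0.252 for these 3), and by Pearson these 3 passed in 4 of the 8 cases of 7 arrays. With the macrophage mean as a covariate the difference between groups was 0.17 for Gpx3, 0.09 for Gpx1 and -0.16 for Nqo1, and for Sod2 it was -0.23.

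**Figure D3:**
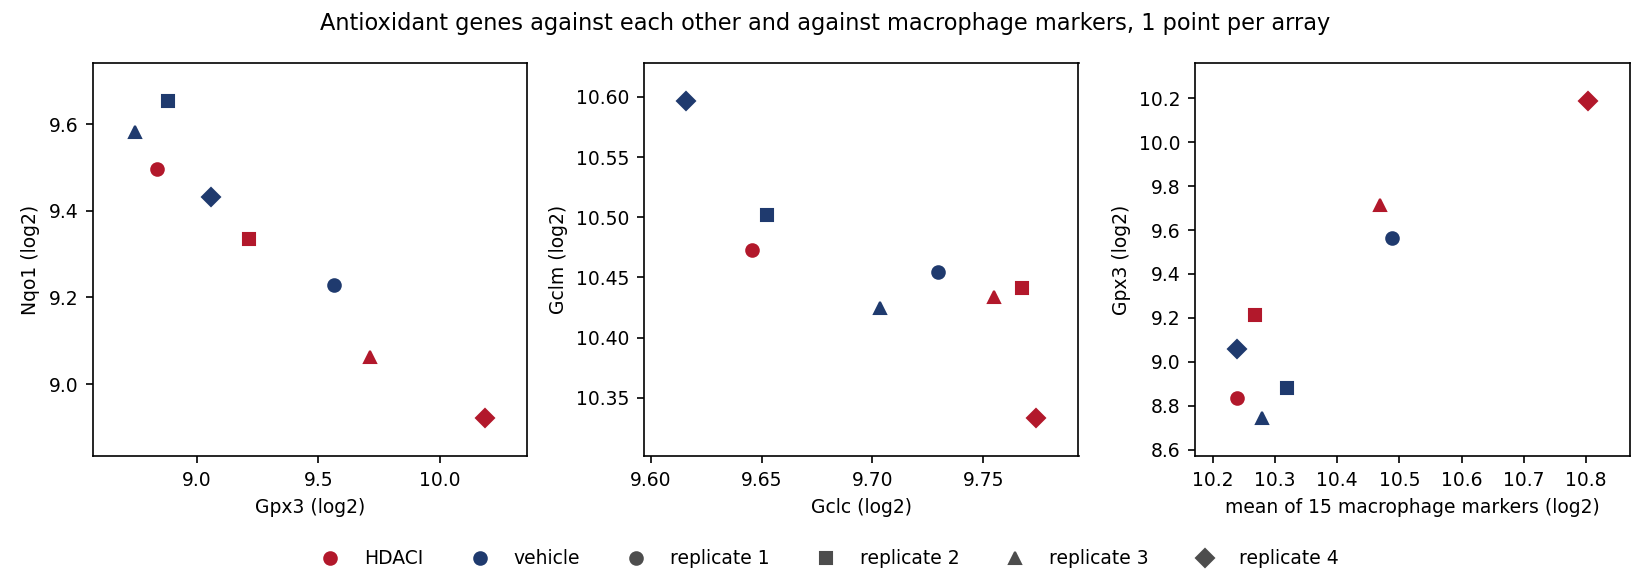
Each point is 1 array (HDACI red, vehicle dark blue, symbols give the replicate number), with log2 values of Nqo1 against Gpx3, Gclm against Gclc, and Gpx3 against the mean of the 15 macrophage markers. The first panel falls in nearly a straight line (r = -0.971), and HDACI replicate 4 lies at an end of all 3 panels.

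A wider list of 98 genes of antioxidant metabolism and its control gave 91 measured genes besides these 10. By limma 0 passed the adjusted threshold, 37 had a lower and 54 a higher mean in HDACI, and the median difference was 0.02 (log2). At an unadjusted limma p under 0.05, 1 of 91 was lower (Me1) and 1 was higher (Mafk), against 1.93% and 1.61% of all probe sets. Groups did not overlap for 0 of 91, against 2.1% of all probe sets. Cytosolic malic enzyme (Me1), a source of NADPH and a known target of Nrf2, measured 10.70, 10.57, 10.54 and 10.51 in HDACI and 10.64, 10.77, 10.83 and 10.76 in vehicle. Its difference was -0.17 ± 0.06 (log2, SE; p = 0.0186 by limma, exact permutation p = 0.0571, adjusted p = 1). Mafk, a small Maf protein with which Nrf2 pairs on DNA, measured 9.74, 9.69, 9.58 and 9.65 against 9.60, 9.57, 9.52 and 9.48, a difference of 0.13 ± 0.05 (p = 0.0397 by limma, exact permutation p = 0.0571, adjusted p = 1). For either gene 3 of 4 HDACI arrays lay outside the vehicle range.

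The other regulators differed by -0.08 to 0.09 (log2). Keap1, which marks Nrf2 for destruction, differed by 0.02 and the related factor Nfe2l1 by -0.08 (-0.05 without HDACI replicate 3). In all, 5 of the 12 regulators were lower and 7 higher. Of the 16 further Nrf2 targets that were listed under no other role, 5 were lower and 11 higher, with a median of 0.05. Of all probe sets 46.7% were lower. Targets listed under other roles, such as Me1, are not in this count, so it does not describe Nrf2 targets as a whole. Akr1b8, an aldo-keto reductase, had the largest difference (0.48 ± 0.24, log2, SE), with 9.43, 9.65, 8.72 and 9.95 in HDACI and 9.06, 8.82, 8.72 and 9.25 in vehicle. The difference was 0.30 without HDACI replicate 4 and 0.72 without HDACI replicate 3, the lowest HDACI array. Akr1b8 has close relatives whose transcripts could bind the same probes. Heme oxygenase 1 (Hmox1) differed by 0.19, and by -0.11 without HDACI replicate 4, where it measured 9.29 against 7.90 to 8.36 on the other arrays. The difference of Hmox1 was 0.35 without HDACI replicate 1 and 0.12 without vehicle replicate 3. The biliverdin reductase Blvrb differed by -0.11, and by -0.05 without HDACI replicate 4.

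**Figure D4:**
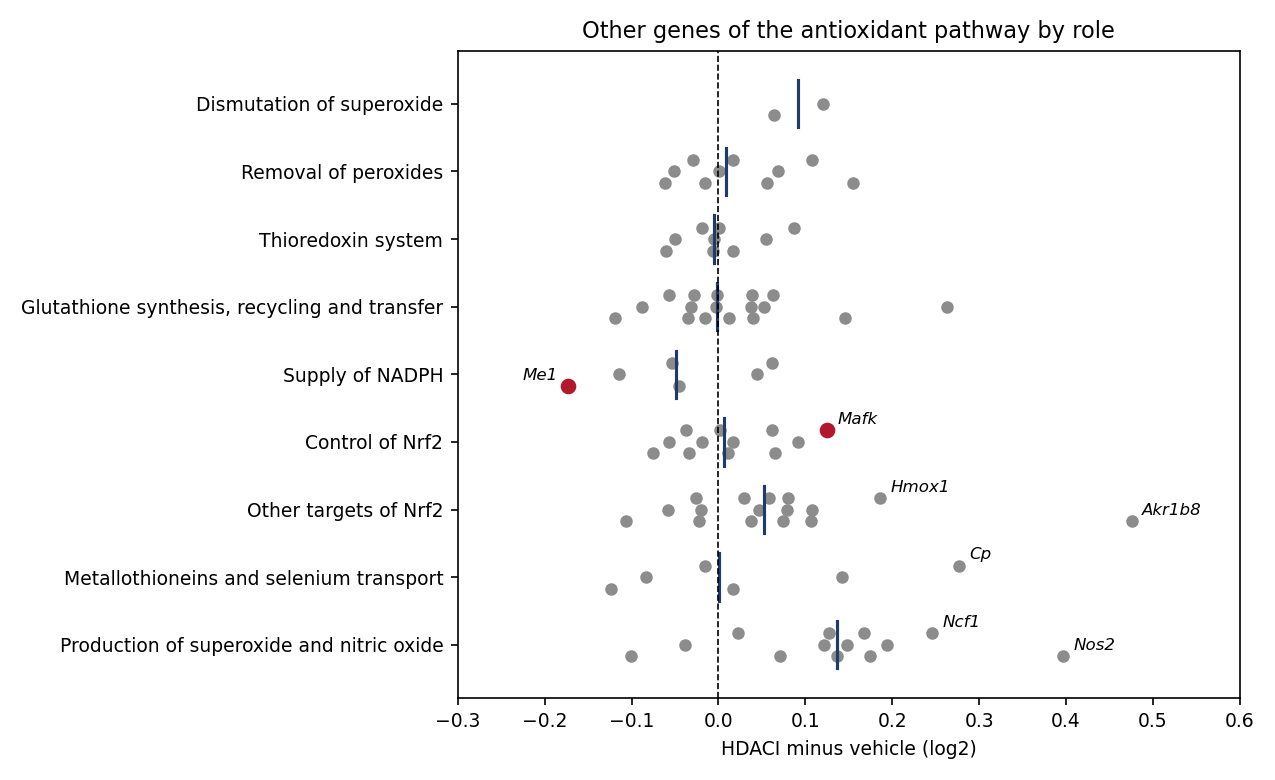
Each point is 1 of 91 further genes of the pathway, placed by its difference HDACI minus vehicle (log2) and its role, with red for an unadjusted limma p under 0.05 and a blue bar for the median of the role. Only Me1 and Mafk are red, and the genes that produce superoxide and nitric oxide have the highest median (0.14).

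The remaining enzymes were spread around 0. Among 10 further genes of peroxide removal, 4 were lower and 6 higher (median 0.01), with Gpx4, which protects membrane lipids, at -0.02, Gpx7 at 0.11 and the peroxiredoxin Prdx6 at -0.06. Extracellular superoxide dismutase (Sod3) differed by 0.06 and Ccs, the chaperone that loads copper onto Sod1, by 0.12. Of 9 thioredoxin genes 5 were lower, with the thioredoxin inhibitor Txnip at 0.09 and the methionine sulfoxide reductase Msrb2 at -0.06. Of 17 glutathione genes 9 were lower, with glutathione reductase (Gsr) at 0.01 and the transferases Gstm1 at -0.12 and Gstp1 at 0.06. Gstm1 also has close relatives on the array. Of 6 genes that supply NADPH 4 were lower (median -0.05), Idh1 at -0.12 among them. Among 6 metallothionein and metal or selenium transport genes, the copper protein ceruloplasmin (Cp) differed by 0.28 and the selenium carrier Selenop by 0.14.

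Many of these differences grew or shrank when a single array was left out, and for some genes more than 1 array did this. Without HDACI replicate 4, Cp differed by 0.14, Selenop by 0.06, Txnip by 0.04, Gstp1 by 0.03 and Idh1 by -0.18. Without vehicle replicate 1, Gstm1 differed by -0.20, Gpx7 by 0.19, Ccs by 0.19, Selenop by 0.22 and Prdx6 by -0.03. Without HDACI replicate 1 Idh1 differed by -0.06 and Msrb2 by -0.04, and without HDACI replicate 3 Prdx6 differed by -0.01 and Sod3 by 0.10. Sod3 differed by 0.04 without HDACI replicate 2 or vehicle replicate 2, and Selenop by 0.08 without the latter. Msrb2 differed by -0.04 without vehicle replicate 3 or 4, and without the latter Gpx7 differed by 0.07 and Gstp1 by 0.04. None of these values had an adjusted p under 0.05 by limma.

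Genes that make reactive species had the highest median of the roles listed, and HDACI replicate 4 was the top array for most. Of 13 measured, 11 had a higher mean in HDACI (median 0.14), while 46.7% of all probe sets were lower. An unadjusted limma p under 0.05 was found for 0 of the 13, against 3.55% of all probe sets. HDACI replicate 4 was the highest array for 10, against 15% of all probe sets. Genes that vary together across arrays are not separate observations. Inducible nitric oxide synthase (Nos2) measured 7.67, 8.002, 7.73 and 8.59 in HDACI and 7.39, 7.68, 7.64 and 7.70 in vehicle, a difference of 0.40 ± 0.19 (log2, SE; p = 0.0613 by limma, exact permutation p = 0.0857, adjusted p = 1). It was 0.20 without HDACI replicate 4. Ncf1, a subunit of the phagocyte NADPH oxidase, differed by 0.25, by 0.11 without that array and by 0.15 without vehicle replicate 3. The macrophage mean was highest in the same array, and its part in these values was not tested. With that mean as a covariate, chosen after the values had been seen, Ncf1 differed by 0.13. Ncf1 is itself a phagocyte gene, so this value is no test of that part.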

How the data were processed

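The authors hybridized RNA to Affymetrix Rat Gene 1.0 ST arrays and preprocessed them with RMA in the Bioconductor package oligo, and the deposited values were log2 intensities per probe set. The versions of these tools are not given in the sources used here. Because RMA sets all arrays to a common distribution, these values cannot show a shift of the whole transcriptome, and it compresses differences of dim probe sets. Levels of different probe sets were not compared. Arrays have no read depth, and their number limits the precision.

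Genes were named from the platform annotation and matched by gene identifier to RefSeq (GRCr8): 15178 of 15209 probe sets with 1 symbol matched, including all 10 members. The probe set with the highest mean represented a gene. HDACI minus vehicle was fitted by lmFit and eBayes of limma (version 3.58.1, run under R 4.3.3), two-sided, with no filter, block or covariate. Groups came from the sample labels. The members and lists were chosen with earlier results of these data known. Named were all members, the 2 genes with the smallest p of each role, and Keap1, Hmox1, Gpx4 and Gsr. Alternatives covered scaling, filters, weights, covariates, tests and left-out arrays. The relations and the covariate that use macrophage genes were chosen after seeing the data. Of the listed genes, 7 of 98 had no probe set of their own.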

Additional observations from a re-analysis of the deposited data

Results flagged for a closer look

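Within groups of 4 arrays, 7 of 64 combinations of gene and group held an array far from the other 3 by Dixon's test. Chance gives about 5% of groups. Of the HDACI arrays, replicate 4 stood apart for Gpx1 (11.56 against 11.16 to 11.20) and Cp (11.93 against 11.35 to 11.43), and replicate 1 for Gclc (9.65 against 9.76 to 9.77). Of the vehicle arrays, replicate 1 stood apart for Gstm1 (11.41 against 11.74 to 11.76), Nos2 (7.39 against 7.64 to 7.70) and Ccs (8.62 against 8.31 to 8.35). Vehicle replicate 2 stood apart for Txnrd1 (9.32 against 9.27 to 9.28), by a distance that is small on the log2 scale. HDACI replicate 4 was the array highest in macrophage markers and vehicle replicate 1 the one highest in skeletal muscle genes.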

How the results depend on the processing

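Over 20 alternatives, 0 of 200 values of the 10 genes passed the adjusted threshold, and 0 probe sets passed in any setting. All were limma fits except the exact permutation test, which could not have passed. Its smallest possible p is 0.0286, and with only 605 probe sets at that p none can pass after adjustment over 28826. Sod2, Nqo1, Gclc, Gclm, Gpx1, Gpx3 and Nfe2l2 kept their direction in all 20. The signs of values near 0 did not hold. Cat differed by 0.00203 with cyclic loess, 0.0222 with array weights, 0.00378 with the skeletal muscle mean and 0.00847 with the macrophage mean as a covariate, and by -0.0232 to 0.0212 with single arrays left out. Sod1 differed by 0.0066 with the muscle covariate. Txnrd1 differed by 0.00731 without vehicle replicates 1 and 2 and by -0.0471 to 0.0137 with single arrays left out. In the same settings, Gpx4 differed by 0.00824 (weights), 0.07 (muscle covariate) and 0.0654 (without those vehicle arrays), and by -0.0525 to 0.0196 with single arrays left out, and Prdx6 by 0.018 with the muscle covariate and 0.0119 without those vehicle arrays. Gsr differed by -0.0199 (weights) and -0.00599 (macrophage covariate) and by -0.0163 to 0.0298 with single arrays left out, Hmox1 by -0.0306 (macrophage covariate) and -0.109 to 0.354, and Keap1 by -0.0116 to 0.0394. The count of the 10 genes lower at an unadjusted p under 0.05 was 0 by the exact permutation test and 1 to 2 with single arrays left out, where Nqo1 joined Sod2 without HDACI replicate 1 or vehicle replicate 1. The count higher was 1 with array weights (Nfe2l2) and 0 to 1 with single arrays left out (Gpx3 without HDACI replicate 1, Gpx1 without vehicle replicate 1). Their median difference was -0.02 to 0.01 over single arrays left out. Probe sets at that p numbered 1022, against 567 among those with 1 symbol, where fewer were tested, 2045 with array weights, 605 by the exact permutation test, and 708 to 1758 with single arrays left out. Pairs past the adjusted threshold numbered 2, but 1 after a second quantile normalization, 1 with cyclic loess, 0 without vehicle replicates 1 and 2, and 1 to 2 with single arrays left out. With those 6 arrays r was -0.993 for Nqo1 and Gpx3 and -0.831 for Gclc and Gclm, about as large as with 8 or larger. The adjusted exact permutation p was 0.0625 and 0.281. The unadjusted exact permutation p of Nqo1 and Gpx3, 0.00139, is the smallest that 6 arrays can give. Over the 45 pairs a lone pair at that p could not pass, so the count of 0 cannot show whether this pair depends on those vehicle arrays. Relations to the macrophage mean numbered 3, but 0 without those vehicle arrays, where r was 0.93 for Gpx3, 0.917 for Gpx1 and -0.898 for Nqo1 over 6 arrays, and 0 to 4 with single arrays left out. Apart from fewer probe sets or arrays, the cause was not tested. No member had another probe set to try.

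With the replicate number as a block, Sod2 differed by -0.22 (adjusted p = 1 by limma), and 803 probe sets had an unadjusted p under 0.05. Deviations of arrays of the same number in both groups correlated at -0.04 to 0.014 for replicates 1 to 3 and at -0.282 for replicate 4. No HDACI array correlated most with the vehicle array of its own number. Other differences between arrays, such as those in muscle genes, could hide a shared batch, so this check cannot exclude one. The samples were not treated as paired because the labels and the array methods name no pairing.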
